A study of Homo sapiens with 4 samples.

Results

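Transcription factors of the mesenchymal state of neuroblastoma were followed in SK-N-SH cells after gain of the long non-coding RNA AP1AR-DT. The 9 factors were taken by name (PRRX1, SNAI2, RUNX1, RUNX2, FOSL1, FOSL2, TWIST1, MEOX2 and SIX4). Of these, 8 had a row under their symbol among the 24014 genes of the count table, and MEOX2 was not analysed here. SK-N-SH is a human neuroblastoma cell line. The control group (2 libraries) carried an empty lentiviral vector and is labelled wild type, and the AP1AR-DT_OE group (2 libraries) carried a recombinant lentivirus with AP1AR-DT, which the labels call AC109347.1. For AP1AR-DT_OE 2 the genotype and treatment labels name the insert AC109347.2 while the title names AC109347.1, and the title was followed. The study's methods name a pCDH vector with a puromycin marker for AP1AR-DT, and the time between infection and RNA extraction is not given in the sources used here. All cells came from this 1 line, and nothing in the labels says whether libraries of a group came from separate cultures. The p-values therefore cover only variation between these libraries. The tests used here estimate that variation partly from other genes, so a p-value does not rest on the gene's own spread alone.

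Neuroblastoma cells can occupy an adrenergic state, held by factors such as HAND2 and GATA3, or a mesenchymal state that resembles migratory neural crest. PRRX1, a paired-type homeobox factor of limb and craniofacial mesenchyme, can drive adrenergic neuroblastoma cells towards the mesenchymal state when it is expressed in them. SNAI2 and TWIST1 are known from epithelial-mesenchymal transition and neural crest, FOSL1 and FOSL2 are FOS-family subunits of the AP-1 complex, RUNX1 and RUNX2 bind DNA through the Runt domain, and MEOX2 and SIX4 are homeobox factors of mesoderm and muscle.

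The libraries held 21988065 to 26184599 counts, with 19833 to 21280 genes above 0. AP1AR-DT, listed under the symbol RP11-73K9.2, was at 3 and 18 counts without overexpression and at 680 and 1065 with it, so the overexpressed RNA followed the labels. Libraries also differed by replicate number. Genes with GC-rich transcripts were relatively lower in control 2 than in control 1 (Spearman's rho of transcript GC content with the log2 ratio -0.77, across 13284 genes, which are not independent replicates), and the same was seen between the AP1AR-DT_OE libraries (rho -0.65). Values within each replicate number are given beside the pooled ones, but they hold a GC trend too. The log2 ratio of AP1AR-DT_OE to control had a rho of -0.34 with GC content in number 1 and of 0.62 in number 2, where low-GC transcripts were relatively lower in AP1AR-DT_OE. The adrenergic and mesenchymal markers were both detected in every library, with 3792 to 4684 normalized read counts for the adrenergic factor PHOX2A and 67917 to 93086 for the mesenchymal filament protein VIM. A normalized read count is a count divided by the library's size factor.

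Of the 8 factors, PRRX1 was the only one with a large difference, and it was lower in AP1AR-DT_OE. None of the 8 passed an adjusted p under 0.05 (DESeq2, Wald test), where 33 of the 24014 genes, or 0.137%, did. At an unadjusted p under 0.05 there was 1 of the 8, PRRX1, against 0.816% of all genes. The Log2FC of AP1AR-DT_OE over control was below 0 for 7 factors and above 0 for 1, with a median of -0.13 beside -0.03 over all genes tested, and apart from PRRX1 no factor moved by more than 0.41. The groups did not overlap for 2 of the 8, PRRX1 and RUNX2, both lower in AP1AR-DT_OE. The same held, in either direction, for 9.45% of the 13298 genes whose mean was 50 or more normalized read counts. With 2 libraries against 2, an exact permutation test of a single gene cannot go below p = 0.333, so no such test is given.

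**Figure D1:**
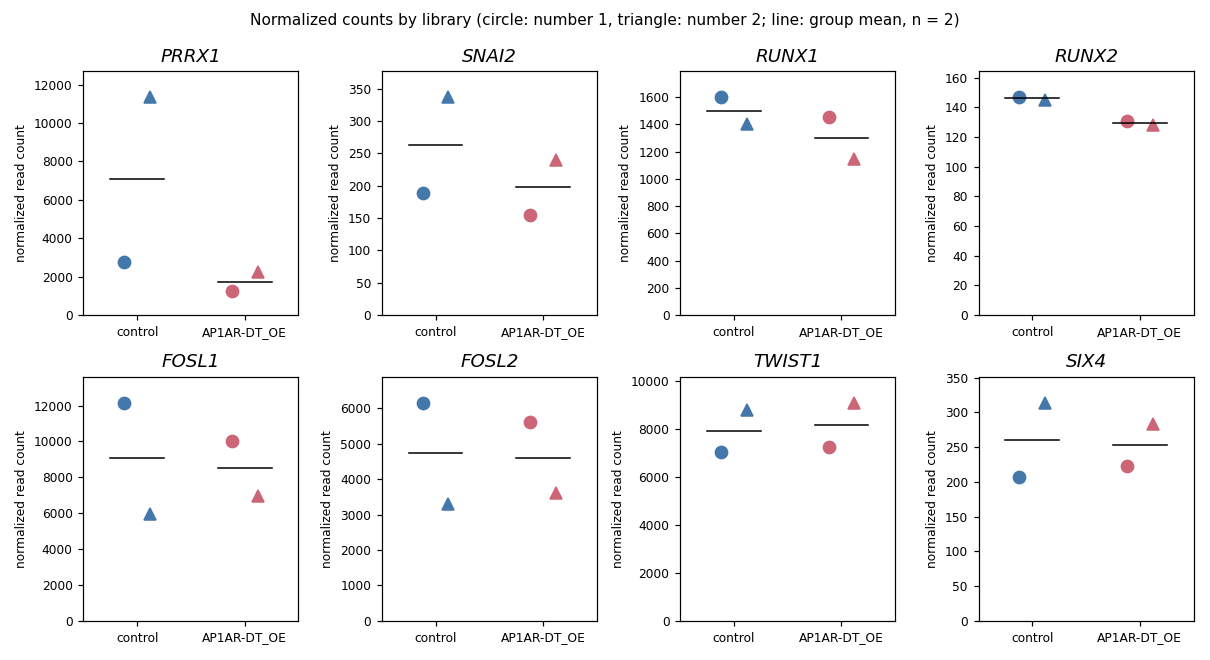
Normalized read count (vertical axis, from 0, own scale for each gene) of the 8 factors in the 2 control and 2 AP1AR-DT_OE libraries, with circles for replicate number 1, triangles for number 2 and a line at each group mean. PRRX1 lies lower in both AP1AR-DT_OE libraries than in either control, and control 2 stands far above control 1.

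PRRX1 (ENSG00000116132; chromosome 1, 170662728 to 170739421, GRCh38, band q24.2) had 2432 counts in control 1, 14724 in control 2, 1131 in AP1AR-DT_OE 1 and 2263 in AP1AR-DT_OE 2. In normalized read counts these were 2770, 11358, 1241 and 2246. Both AP1AR-DT_OE libraries lay under the lower control, but AP1AR-DT_OE 2 was close to control 1, while control 2 stood far above all the others. The mean of the controls was 7064 ± 6073 and that of the AP1AR-DT_OE libraries 1743 ± 711 (SD, n = 2 each), which is 4.05-fold lower. The Log2FC was -2.02 (SE = 0.61, 95% interval -3.22 to -0.82), and DESeq2 gave it an unadjusted p = 0.000987. Adjusted over all genes, p was 0.43, and PRRX1 was not called in this fit, which holds no block for the replicate number. Fits with that block did call it, and they are given with the other alternatives in the closing section. The labels do not say that a number marks a batch. By unadjusted p in the fit without the block, 54 genes of the table came before PRRX1.

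The difference had the same direction in both replicate numbers but not the same size. Within number 1 the log2 ratio of AP1AR-DT_OE over control was -1.16, a 2.23-fold lower count, and within number 2 it was -2.34, or 5.06-fold lower. Each number holds 1 library per group, so these ratios have no test. The ratio in number 2 lies in the direction of the GC trend there, and the ratio in number 1 lies against the trend there. With the GC correction described below, the log2 ratios were -1.28 in number 1 and -2.08 in number 2. Without that correction, the controls themselves differed by 4.10-fold in PRRX1 and the AP1AR-DT_OE libraries by 1.81-fold. A difference of that size or more between the controls, in either direction, was seen in 3.70% of the genes whose mean reached 50 normalized read counts.

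The size of the PRRX1 difference depended on which control was kept. Without control 2 the Log2FC was -0.66 (SE = 0.46, adjusted p = 1.00 by DESeq2), and without control 1 it was -2.71 (SE = 0.46, adjusted p = 4.24e-06). The group left with 1 library is then assumed to vary like the other. The longest PRRX1 transcript had a GC content of 40.4%, and low-GC transcripts were relatively higher in control 2. When the GC trend of each library was taken out, the PRRX1 counts became 3879 and 7728 without overexpression and 1598 and 1830 with it, and on the log2 scale the gap between the groups was then wider than the gap between the controls. The Log2FC was then -1.76 (SE = 0.37) and passed the threshold (DESeq2 with GC correction, adjusted p = 0.00108), as 1 of 55 genes, or 0.229% of those tested. PRRX1 was the only one of the 8 factors called after this correction. The edgeR quasi-likelihood test gave -2.04 with an unadjusted p = 0.0317 and an adjusted p = 1.00, and it called 0 genes of the whole table, with 112 at an unadjusted p under 0.05. The part of the GC trend in the difference was not tested beyond this correction.

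**Figure D2:**
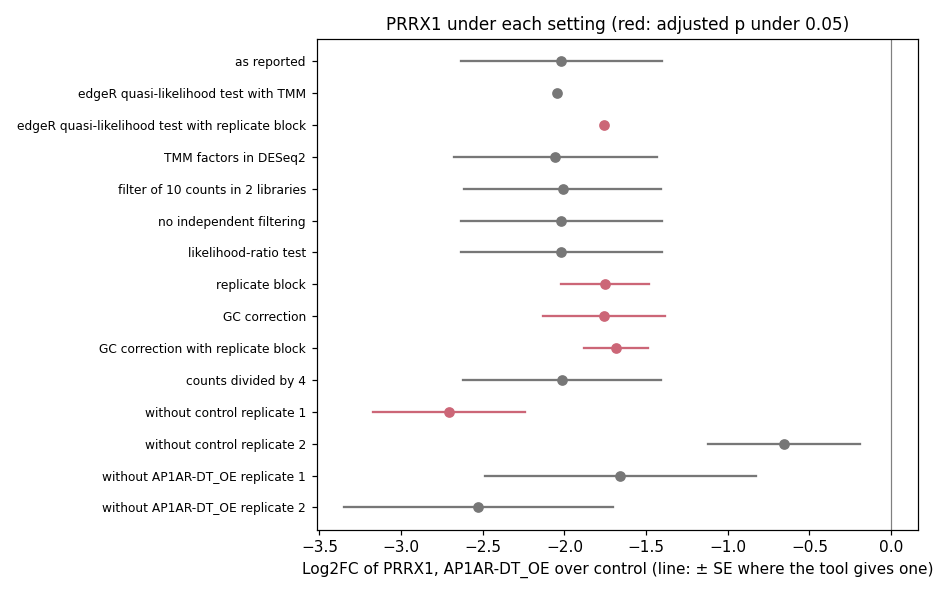
Log2FC of PRRX1 (horizontal axis, AP1AR-DT_OE over control) under the reported DESeq2 fit and each alternative, with lines for ± SE where the tool gives one and red for an adjusted p under 0.05. All values lie below 0. The lowest, -2.71, leaves out control 1 and the highest, -0.66, leaves out control 2.

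SNAI2 (ENSG00000019549; chromosome 8, 48917598 to 48921740), a zinc-finger repressor of E-cadherin, was counted 165 times in control 1, 437 times in control 2, 141 times in AP1AR-DT_OE 1 and 242 times in AP1AR-DT_OE 2. The normalized read counts were 188 and 337 in control against 155 and 240 in AP1AR-DT_OE, and the groups overlapped. The Log2FC was -0.41 (SE = 0.57, adjusted p = 1.00), and the ratios within numbers 1 and 2 were -0.28 and -0.49 on the log2 scale. Without control 2 it was 0.08. In both groups the library numbered 1 was the lower one. After GC correction the libraries read 255 and 238 in control and 194 and 200 in AP1AR-DT_OE, which no longer overlapped, but SNAI2 was still not called (Log2FC = -0.32, SE = 0.35, adjusted p = 1.00). A non-coding RNA on the opposite strand has exon sequence in common with SNAI2, and it was not analysed here.

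TWIST1 (ENSG00000122691; chromosome 7, 19020991 to 19117636), a basic helix-loop-helix factor of cranial mesenchyme, gave 6171 and 11416 counts without AP1AR-DT overexpression and 6601 and 9159 with it. Normalized, these were 7028, 8806, 7241 and 9091, and the groups overlapped almost fully. The Log2FC was 0.04 (SE = 0.43, adjusted p = 1.00), with a 95% interval from -0.80 to 0.89, and the log2 ratios were 0.04 and 0.05 within the numbers. With GC correction its sign turned, to -0.05, and the controls lay farther apart than before, at 5723 and 11184. An antisense RNA that has exon sequence in common with TWIST1 held 4 to 11 counts per library.

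**Figure D3:**
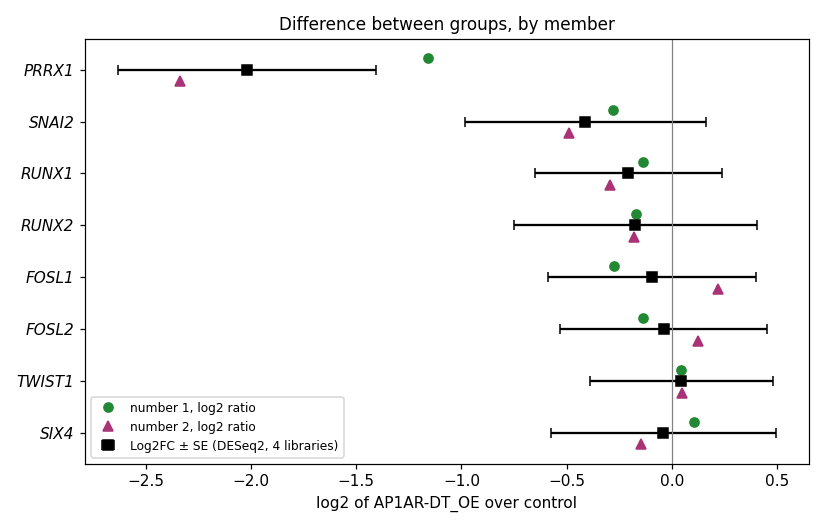
Log2 of AP1AR-DT_OE over control (horizontal axis) for each of the 8 factors, with squares and lines for the Log2FC ± SE from DESeq2 on 4 libraries, circles for the ratio within replicate number 1 and triangles for number 2. PRRX1 lies at -2.02, and the others lie between -0.41 and 0.04 with lines that cross 0.

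The FOS-family pair followed the replicate number. FOSL1 (ENSG00000175592; chromosome 11, 65892049 to 65900573), whose protein pairs with JUN proteins to bind AP-1 sites, was counted 10673 times in control 1, 7733 times in control 2, 9153 times in AP1AR-DT_OE 1 and 7002 times in AP1AR-DT_OE 2. The normalized read counts were 12156 and 5965 against 10040 and 6950, so that number 1 was higher in both groups and the groups overlapped. The Log2FC was -0.09 (SE = 0.49, adjusted p = 1.00), with opposite signs within the numbers, -0.28 in number 1 and 0.22 in number 2. FOSL2 (ENSG00000075426; chromosome 2, 28392448 to 28417317) had 5411, 4290, 5114 and 3626 counts in the libraries in that order, or 6163, 3309, 5610 and 3599 normalized. It showed the same order of libraries as FOSL1. Its Log2FC was -0.04 (SE = 0.49, adjusted p = 1.00), with -0.14 in number 1 and 0.12 in number 2. After GC correction the controls differed less, with log2 ratios of control 2 over control 1 of -0.33 for FOSL1 and -0.46 for FOSL2, where they had been -1.03 and -0.90. Over the 8 factors, the controls came closer with the correction for 5 and moved apart for 3 (RUNX1, RUNX2 and TWIST1).

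The Runt-domain pair showed small differences below 0 in both numbers. RUNX1 (ENSG00000159216; chromosome 21, 34787801 to 36004667), best known from blood stem cell formation, had 1406 counts in control 1, 1814 in control 2, 1327 in AP1AR-DT_OE 1 and 1151 in AP1AR-DT_OE 2. Normalized, these were 1601, 1399, 1456 and 1142, and AP1AR-DT_OE 1 lay between the controls. The Log2FC was -0.21 (SE = 0.44, adjusted p = 1.00), with -0.14 and -0.29 within the numbers. RUNX2 (ENSG00000124813; chromosome 6, 45328157 to 45664349), the factor required for bone formation, was the least counted, with 129 and 188 in the control libraries and 119 and 129 after overexpression. The normalized values were 146.9 and 145.0 in control and 130.5 and 128.0 in AP1AR-DT_OE, which did not overlap. RUNX2 was the steadiest of the 8 within groups, yet its Log2FC of -0.18 (SE = 0.58) was small beside the error that DESeq2 assigns to a gene of this depth (adjusted p = 1.00). With GC correction the RUNX2 groups overlapped.

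A window before a RefSeq start of RUNX2 held matches to motifs bound by proteins of this set. These are shown to give the sequence that the names FOSL and RUNX refer to. The 250 bases before the start were searched on both strands for TGANTCA (AP-1), TGTGGT (RUNX), CAGGTG (Snail factors) and GCGCANGCG (the core of NRF1 sites, the factor that the study followed), in promoter sequences from RefSeq on GRCh38.p14 that matched 6 of the 9 factors with 7 starts. Bases before the distal start of RUNX2, on the plus strand, held 1 AP-1 match 243 bases before the start and 2 RUNX matches 191 and 87 bases before it, given with the matched letters in capitals (ACCACA is TGTGGT read from the opposite strand):

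RUNX2 AP-1 match, chr6:45328080-45328103: atcctcaTGAGTCAcaaaaattaa

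RUNX2 first RUNX match, chr6:45328129-45328154: gaaaggccttACCACAagccttttgt

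RUNX2 second RUNX match, chr6:45328233-45328258: gaggtcacaaACCACAtgattctgcc

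Of 35116 promoter sequences of this length, 6.57% held the AP-1 letters and 10.98% the RUNX letters, so neither match is rare. The proximal RUNX2 start and the windows of PRRX1, RUNX1, FOSL2 and SIX4 held none of the 4 motifs, and that of MEOX2 held 1 RUNX match. NRF1 and Snail letters, present in 6.56% and 17.5% of all promoters, were in none of the 7 windows. The distal window runs from 45328080 to 45328329, while the gene position given above for RUNX2 starts at 45328157. The second RUNX match thus lies inside the gene as placed there, and the AP-1 match and the first RUNX match lie before it. The counts do not separate the 2 starts of RUNX2, and a match of letters is not a measured site.

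SIX4 (ENSG00000100625; chromosome 14, 60709539 to 60724351), a homeobox factor of muscle precursors and sensory ganglia, was counted 182 and 407 times in the control libraries, and 203 and 286 times with AP1AR-DT overexpressed. The normalized read counts were 207 and 314 in control and 223 and 284 in AP1AR-DT_OE, with both AP1AR-DT_OE libraries between the controls. The Log2FC was -0.04 (SE = 0.53, adjusted p = 1.00), with opposite signs in the numbers (0.10 and -0.15), and it was 0.03 after GC correction.

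**Figure D4:**
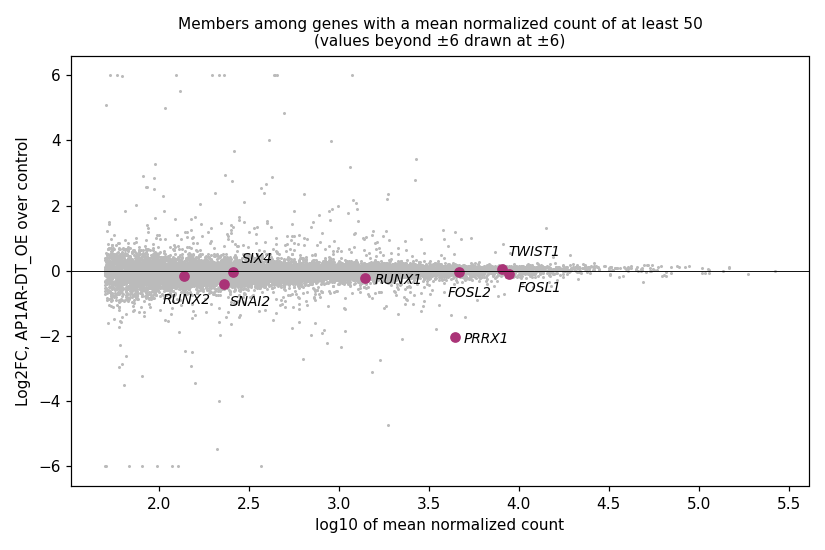
Log2FC (vertical axis) against log10 of the mean normalized read count (horizontal axis) for the 13298 genes whose mean reaches 50 (grey), with the 8 factors marked and values beyond the axis drawn at its limit. PRRX1 lies at -2.02, where 28 of the plotted genes had a lower Log2FC, and the other factors lie between -0.41 and 0.04.

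Levels of the 8 factors were compared per kilobase of their longest transcript. FOSL1 had the highest mean, 5157 normalized read counts per kilobase, with 3505 to 7142 over the 4 libraries, and TWIST1 followed with 4933 (4312 to 5577). These ranges overlapped, and TWIST1 was the higher of the pair in control 2 and AP1AR-DT_OE 2. PRRX1 had 1084 (305 to 2797) and FOSL2 696 (493 to 918), and their order also depended on the library, because PRRX1 exceeded FOSL2 per kilobase in control 2 and AP1AR-DT_OE 2 only. RUNX1 had 192, SNAI2 81.3, SIX4 39.6 and RUNX2 23.4 per kilobase, and no neighbours among these overlapped over the libraries. FOSL1 and TWIST1 were thus the most abundant of these transcripts in both groups, and RUNX2 the least. Several of these genes have transcripts of different length, so that the levels per kilobase depend on the one taken.

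The genes most like a factor across the 4 libraries were found by the distance between log2 normalized read counts centred on their mean. For FOSL1, the factor with the highest mean count, these were MAP4K4, DHDDS and MAFK, at distances of 0.017, 0.018 and 0.022 on the log2 scale, and all 3 were lower in number 2 than in number 1 of both groups, as FOSL1 was. FOSL2 was the nearest of the other factors, at 0.12. PRRX1 was looked at in the same way after its values were seen. Its nearest genes were much farther off, MRPL42 at 0.42, TM9SF1 at 0.55 and ZFP90 at 0.83, and the nearest factor was SNAI2 at 1.61. MRPL42, a mitochondrial ribosomal protein gene, had 137 and 506 normalized read counts in control and 75.7 and 141 in AP1AR-DT_OE, with control 2 the highest and AP1AR-DT_OE 1 the lowest, as in PRRX1, but AP1AR-DT_OE 2 lay above control 1 and its groups overlapped. TM9SF1 had 498 and 2046 in control and 324 and 348 in AP1AR-DT_OE, which did not overlap and had the same order of libraries as PRRX1. Its Log2FC was -1.92 (SE = 0.61), and it was not called. The groups of ZFP90 overlapped, as those of MRPL42 did. The distances to these genes rest on 4 libraries and are a description.

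Genes that work with the 8 factors were then read from the same fit, in which 0.137% of all genes passed. At that share, 0 calls in a short list, here and in the lists below, say little about whether its genes changed. Among AP-1 partners and relatives, 0 of the 11 with a row passed the threshold in either direction, and their median Log2FC was -0.07. JUN, the main partner of FOS proteins, had 13254 and 22520 normalized read counts in control and 12564 and 16884 in AP1AR-DT_OE. Its Log2FC was -0.28 (SE = 0.46, adjusted p = 1.00). JUNB had a Log2FC of 0.01 (SE = 0.53) and JUND one of -0.03 (SE = 0.42). FOS and FOSB, named after their values were seen, varied far more with the replicate number than with AP1AR-DT. FOS, an immediate-early gene, had 54 counts in control 1, 19720 in control 2, 32 in AP1AR-DT_OE 1 and 8234 in AP1AR-DT_OE 2, so that normalized counts were 247-fold higher in control 2 than in control 1 and 233-fold higher in AP1AR-DT_OE 2 than in AP1AR-DT_OE 1. FOSB had 54, 10081, 28 and 4075 counts in the same order. The Log2FC of FOS was -0.90 (SE = 3.02) and that of FOSB -0.94 (SE = 2.83), both with an adjusted p = 1.00.

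Of the RUNX partners and relatives, 6 of 7 had a row and 0 passed in either direction, with a median Log2FC of -0.04 over the 5 above the detection floor of 12 counts. RUNX3 lay under that floor in all libraries. CBFB, the subunit that stabilises Runt-domain proteins on DNA, had 30 counts in control 1, 2625 in control 2 and 754 and 1489 in AP1AR-DT_OE. Control 1 stood far under the other libraries, and the Log2FC of 0.16 had an SE of 1.97. Without control 2 the Log2FC of CBFB was 5.09 and it was called (adjusted p = 1.1e-15), so that value rested on control 1 alone. The corepressors TLE1 and TLE3 had Log2FC values of -0.06 (SE = 0.44) and -0.01 (SE = 0.48).

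Among repressors of the epithelial state and partners of helix-loop-helix factors, 0 of 12 passed, with a median of 0.004. ID1, an inhibitor of helix-loop-helix factors, was the most abundant, with 12616 and 11376 normalized read counts in control and 12892 and 12667 in AP1AR-DT_OE (Log2FC = 0.09, SE = 0.42). ID3 and the E-protein TCF3 had Log2FC values of 0.01 (SE = 0.42) and -0.01 (SE = 0.47). Homeobox relatives and cofactors of SIX4 gave 0 of 10, with a median of 0.10 over the 9 above the floor. MSX1 had a Log2FC of -0.02 (SE = 0.48), while SIX5, a paralog of SIX4, had 1789 and 1111 normalized read counts in control and 1850 and 2233 in AP1AR-DT_OE, a Log2FC of 0.49 with an SE of 0.46 (adjusted p = 1.00). PRRX2, the paralog of PRRX1, was named for that relation after the values were seen, and had 1945 and 1324 against 1981 and 1701 (Log2FC = 0.17, SE = 0.45). The test of the difference between PRRX1 and PRRX2 was not run.

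Other regulators of the mesenchymal state gave 0 of 23 in either direction. Their Log2FC was below 0 for 19 and above 0 for 4, with a median of -0.10 beside -0.03 over all genes. AEBP1, the most abundant, had a Log2FC of 0.03 (SE = 0.48), NOTCH2 of -0.13 (SE = 0.55) and MEF2D of -0.09 (SE = 0.49). The markers of the mesenchymal state gave 0 of 19, with a median of 0.09, 15 above 0 and 4 below. VIM had a Log2FC of 0.12 (SE = 0.43), TGFBI of 0.09 (SE = 0.44) and FN1, fibronectin, of 0.06 (SE = 0.47). Summed over these 19 markers, normalized counts were 300622 and 228759 in control and 306339 and 260027 in AP1AR-DT_OE, and the groups overlapped. This sum, in which the most abundant markers such as VIM weigh most, did not have the order of libraries of PRRX1. The order in single markers can differ from that of the sum. Textbook targets of AP-1, Runt-domain and Snail factors gave 0 of 15, with a median of 0.003 over the 14 above the floor. HMGA1 had a Log2FC of 0.00 (SE = 0.45) and CCND1 of -0.02 (SE = 0.42).

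The adrenergic state gave the comparison from the opposite side. Of its transcription factors, 0 of 14 with a row passed, beside 0.137% of all genes, with a median Log2FC of 0.02. HAND2, TBX2 and PHOX2A had values of 0.02 (SE = 0.43), 0.07 (SE = 0.44) and 0.11 (SE = 0.43). Of its markers, 0 of 9 passed, with a median of 0.003. DBH, which makes noradrenaline, had a Log2FC of 0.23 (SE = 0.48), the granin CHGA of 0.00 (SE = 0.48) and STMN2 of -0.24 (SE = 0.72). Markers of other cell types had a row for 5 of 13 genes, of which KRT18, KRT8 and KRT19 were the highest (Log2FC = 0.05, 0.01 and -0.24, SE = 0.46, 0.49 and 0.96). EPCAM, the defining epithelial marker, had 0 to 14 counts per library. Fewer cells in a state and less RNA per cell cannot be told apart in bulk libraries.

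**Figure D5:**
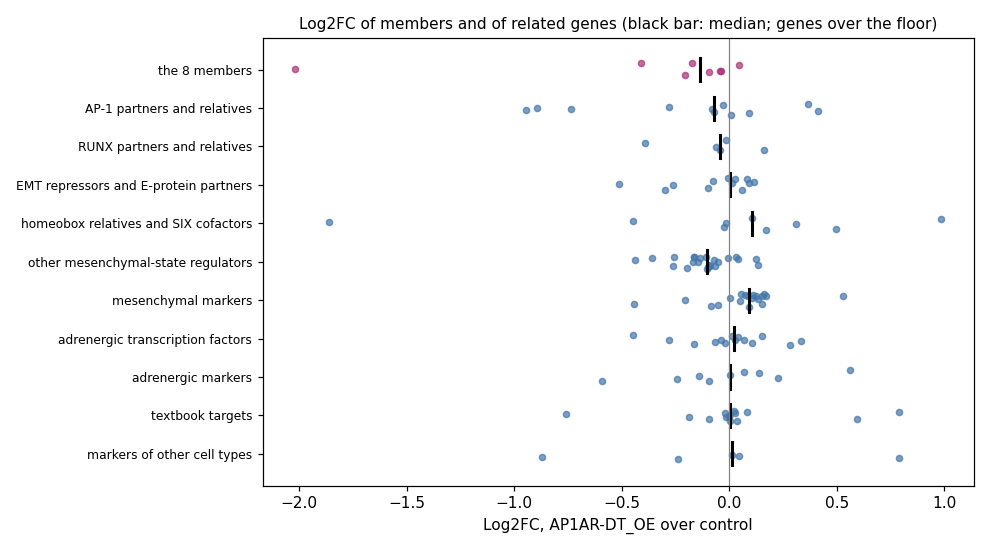
Log2FC (horizontal axis) of the 8 factors and of the genes of each related list above the floor of 12 counts, with 1 point per gene and a black bar at the median. PRRX1 at -2.02 lies farthest to the left, and the medians lie between -0.13 and 0.10.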

How the data were processed

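RNA from SK-N-SH cells was sequenced as 150-base read pairs. Per the paper's methods the authors aligned reads to hg19 with HISAT2 and derived read counts per gene with StringTie, while the submitters' processing notes list TopHat2 2.0.4, HTSeq, Cuffdiff and edgeR 2.6.12. The deposited counts are whole numbers without normalization. Low values piled up at 4 (3287 entries, against 2136 at 3 and 1509 at 5), so a read pair may often stand for about 4 counts, which the sources used here do not state. The floor was set on that assumption, at 3 pairs or 12 counts. Gene positions in the table are GRCh38, and are printed as given. Whether counting used strand is not given in the sources used here. Columns of the authors' own fold changes and p-values were not used.

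Counts of 4 libraries, grouped by title, were fitted over all genes with DESeq2 1.42.0 in R 4.3.3 (median-of-ratios size factors, Wald test, two-sided, Benjamini-Hochberg adjustment, no filter on low counts before the fit). Genes with an adjusted p below 0.05 are named called. Depth was 21988065 to 26184599 counts, and SE and floors cover counting and replicate error of these libraries only. The procedure was tested on simulated data, and the outcome is not reported here. Those data held no effect of the replicate number and no GC trend, so the test says nothing about either. Transcript length and GC content came from the longest GENCODE v44 transcript lifted to GRCh37, found for 23954 of 24014 genes. The GC correction took out each library's lowess trend (span 0.3). Replicates were not copies of each other (chi-square per degree of freedom of 155 for the controls and 69.0 for AP1AR-DT_OE). Members, gene lists and tests were chosen with earlier results of these data known. Named genes were the members, the 3 genes of each list with the highest mean, any gene called, AP1AR-DT, and the 3 genes nearest in pattern to the member with the highest mean. Some genes that this rule names are not reported here. Alternatives were edgeR 4.0.16, the likelihood-ratio test, TMM factors, counts divided by 4, a filter of 10 counts in 2 libraries, the GC correction, a block for the replicate number (also with the GC correction), p-values without independent filtering, and leaving out each library. The edgeR test with the block was added after seeing the data.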

Additional observations from a re-analysis of the deposited data

How the results depend on the processing

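The count of all genes called, 33 by DESeq2, was 0 by edgeR's quasi-likelihood test, where 112 had an unadjusted p under 0.05, and 55 with GC correction, 60 with GC correction and the replicate block, and 15 with counts divided by 4. It ranged from 45 to 90 when 1 library was left out, with 90 without control 1, 75 without control 2, 45 without AP1AR-DT_OE 1 and 50 without AP1AR-DT_OE 2. The lone library of a group is then assumed to vary like the other group. The remaining alternatives gave 24 to 44. Of the 8 factors, 0 were called as reported and 1, PRRX1, with GC correction, with the replicate block, with both together, and by edgeR with the block. Leaving out 1 library gave 0 to 1 factors called (1 without control 1), and 0 to 1 at an unadjusted p under 0.05 (0 without control 2).

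The replicate numbers match between groups, but the labels do not say that a number marks a shared batch, and there are only 2 pairs. Deviations from the group means correlated between libraries of the same number at r = 0.41 across 16730 genes. With the block the Log2FC of PRRX1 was -1.75 (SE = 0.27, DESeq2, adjusted p = 1.1e-07), and with GC correction -1.76 (SE = 0.37, adjusted p = 0.00108). With both it was -1.68 (SE = 0.20, adjusted p = 1.32e-14). The edgeR block, an alternative chosen after seeing the data, gave -1.76 (adjusted p = 0.0176). The 2 pairs differed in size, with log2 ratios of -1.16 and -2.34, or -1.28 and -2.08 after GC correction. With so few libraries the SE of a blocked fit rests largely on the spread shared across genes. These small p-values therefore do not measure how well the 2 pairs match. The block changed no other factor's call. With GC correction and the block, 2 AP-1 partners passed, FOS at -0.96 and FOSB at -1.10, and 1 mesenchymal marker, TAGLN at 0.51. Among RUNX partners leaving out 1 library gave 0 to 1 calls, CBFB without control 2.

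Leaving out 1 library gave Log2FC values of -2.71 to -0.66 for PRRX1, -0.78 to 0.083 for SNAI2, -0.51 to 0.51 for FOSL1, -0.41 to 0.48 for FOSL2, -0.14 to 0.23 for TWIST1 and -0.31 to 0.30 for SIX4. The sign also turned for TWIST1 with GC correction (-0.049, and -0.0045 with the block) and for SIX4 (0.032, and 0.033 with the block). RUNX1 and RUNX2 kept their sign and stayed uncalled under all 14 alternatives. AP1AR-DT had a Log2FC of 6.60 by edgeR's quasi-likelihood test and was not called there (adjusted p = 0.39). The cause of these shifts was not tested. With 2 libraries a group and standard errors of 0.43 to 0.61, only large differences of these factors could be called.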

Other observations

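Of the immediate-early genes other than FOS and FOSB, DUSP1, ATF3 and EGR3 were also higher in number 2 of both groups. These genes, chosen after their values were seen, are known for rapid transcription after a stimulus. Not all relatives of FOS had this pattern, as FOSL1 was lower in number 2 of both groups. DUSP1, a phosphatase of MAP kinases, had 2221 normalized read counts in control 1, 7935 in control 2, 2174 in AP1AR-DT_OE 1 and 7843 in AP1AR-DT_OE 2, so that libraries of the same number nearly coincided (Log2FC = -0.02, SE = 0.66). ATF3, a stress-induced partner of JUN proteins, had 63.8, 453, 92.1 and 218 in the same order (Log2FC = -0.74, SE = 0.79), and EGR3 had 4, 106, 4 and 60 counts, both number 1 libraries lying under the floor of 12. None of these genes was called by DESeq2.

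TAGLN, an actin-binding protein of smooth muscle and myofibroblasts, had the highest Log2FC of the mesenchymal markers, 0.53 (SE = 0.45, adjusted p = 1.00 by DESeq2). Its normalized read counts were 8802 and 5819 in control and 11715 and 9390 in AP1AR-DT_OE, which did not overlap. Of the 19 mesenchymal markers this held for 1, beside 9.45% of all genes with a mean of 50 or more normalized read counts. TAGLN was opposite in sign to PRRX1, and both keep that sign within each replicate number. The difference between the pair was not tested.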
